A study of Ovis aries with 16 samples.

Results

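The 8 genes described here code for desmoplakin (DSP), plakoglobin (JUP), plakophilin 2 (PKP2), desmoglein 2 (DSG2), desmocollin 2 (DSC2), E-cadherin (CDH1) and the keratins KRT7 and KRT23. They were picked by name from a table of 28524 genes, and all 8 names were found in it. An earlier account of the same libraries had listed DSP among the genes lower in subcutaneous fat after bisphenol A (BPA), so its values in that comparison are given as a description. RNA was sequenced from fat of ewes 21 months old, in 4 groups of 4 libraries: visceral BPA, visceral control, subcutaneous BPA and subcutaneous control. Mothers of the BPA ewes were injected under the skin with 0.5 mg/kg/day of BPA, a plastics chemical, in corn oil from day 30 to day 90 of a pregnancy of about 147 days, and mothers of control ewes received the oil alone. Visceral fat was mesenteric fat from around the rumen and subcutaneous fat came from over the sternum. All ewes were fed a maintenance diet and had their cycle synchronised with prostaglandin before tissue was taken.

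Desmosomes are button-like junctions that hold neighbouring cells together. The cadherins DSG2 and DSC2 meet across the gap between cells, the armadillo proteins JUP and PKP2 bind their tails, and DSP ties this plaque to intermediate filaments, which are keratins in epithelia. E-cadherin builds the adherens junctions of epithelia, where plakoglobin is also found. The mesothelium, the flat cell layer that covers visceral fat, carries both junction types together with simple keratins.

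The libraries held 6768945 to 14305764 counts in visceral fat and 3046126 to 6223460 in subcutaneous fat. Levels are CPM, counts divided by the library total after scaling with TMM factors and put on a common scale, differences are log2 fold changes with their standard error (SE), and a gene was called when its edgeR quasi-likelihood p, adjusted by Benjamini-Hochberg over all genes tested, was under 0.05. A gene with too few counts in a comparison was not tested there. The 10 adipocyte markers listed summed to 14739.5 CPM in visceral BPA library 977, to 20750.8 CPM or more in each other visceral library and to 10932 CPM or more in each subcutaneous one. Of 14 markers of skin, gland and gut epithelium, all together reached at most 11.3 CPM in a visceral and 13.2 CPM in a subcutaneous library, KRT5 had 0 counts in all 16 libraries, and EPCAM had at most 10 counts in any.

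DSP, the link between the junction and the filaments, was far higher in visceral than in subcutaneous fat, and it differed widely between libraries. The gene lies on chromosome 20, from 51306578 to 51350068 on the minus strand, with 24 exon blocks that cover 9424 bases. Positions are those of the authors' deposited table, whose genome build is not given in the sources used here. In visceral fat it stood at 92.5, 104, 507 and 32.5 CPM in BPA ewes 910, 918, 977 and 984, against 129, 161, 119.9 and 75.9 CPM in control ewes 902, 908, 924 and 928. In subcutaneous fat it stood at 3.09, 3.83, 6.45 and 4.04 CPM in BPA ewes 918, 922, 941 and 977, against 14.6, 9.46, 11.1 and 12.9 CPM in control ewes 902, 924, 928 and 931. Every visceral library was above every subcutaneous one, and the 4 subcutaneous BPA libraries were all below the 4 subcutaneous controls.

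The desmoplakin transcript was 42.9-fold higher in visceral than in subcutaneous fat of BPA ewes (log2 difference 5.42 ± 0.83, edgeR adjusted p = 0.00591), and without visceral library 977 the log2 value was 4.15. In control ewes the depot difference was 10.1-fold (3.34 ± 0.24, edgeR adjusted p = 2.73e-05). Group means were 184 ± 217 CPM in visceral BPA and 4.35 ± 1.46 CPM in subcutaneous BPA fat, and 121 ± 35.0 CPM in visceral control and 12.03 ± 2.23 CPM in subcutaneous control fat (SD, n = 4 each).

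JUP did not share this pattern and varied little over the 16 libraries. This plaque protein, which binds the tails of both desmosomal and classical cadherins, is coded on chromosome 11 from 21146284 to 21172483 on the plus strand. It was at 110.5, 104, 97.0 and 121 CPM in visceral BPA libraries, against 124, 135, 139.9 and 117 CPM in visceral controls. Subcutaneous BPA libraries held 135, 148, 109 and 126 CPM, against 131, 131, 149 and 109.9 CPM in subcutaneous controls. The lowest of the 16 values was that of visceral BPA library 977, which had the highest DSP. The log2 depot difference was -0.26 ± 0.15 in BPA ewes (edgeR adjusted p = 0.279) and -0.01 ± 0.13 in control ewes (edgeR adjusted p = 0.972). A p above the threshold does not show that the depots have equal levels.

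PKP2, the plakophilin of heart and of simple epithelia, ran the other way and was lower in visceral than in subcutaneous fat of control ewes. It lies on chromosome 3 from 195226352 to 195318190 on the plus strand. Visceral BPA libraries held 6.13, 4.10, 1.80 and 0.602 CPM, against 4.81, 5.87, 2.41 and 4.72 CPM in visceral controls. Subcutaneous BPA libraries held 4.94, 23.9, 2.93 and 10.3 CPM, against 9.81, 9.29, 13.2 and 7.16 CPM in subcutaneous controls. In control ewes every visceral library was below every subcutaneous one, whereas in BPA ewes the depots overlapped and subcutaneous library 922 stood well above the rest. In BPA ewes the log2 difference of PKP2 between visceral and subcutaneous fat was -1.75 ± 0.73 (edgeR adjusted p = 0.155), and -0.96 without subcutaneous library 922. In control ewes it fell by 1.14 ± 0.31 on the log2 scale in visceral relative to subcutaneous fat (edgeR adjusted p = 0.0348). The call in control ewes was lost on omission of each of 6 libraries, visceral 902, 924 and 928 and subcutaneous 902, 924 and 928, with edgeR adjusted p between 0.0531 and 0.0953. It was lost too in a fit of all 16 libraries (edgeR adjusted p = 0.226) and without subcutaneous controls 902 and 924 together (edgeR adjusted p = 0.104).

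**Figure D1:**
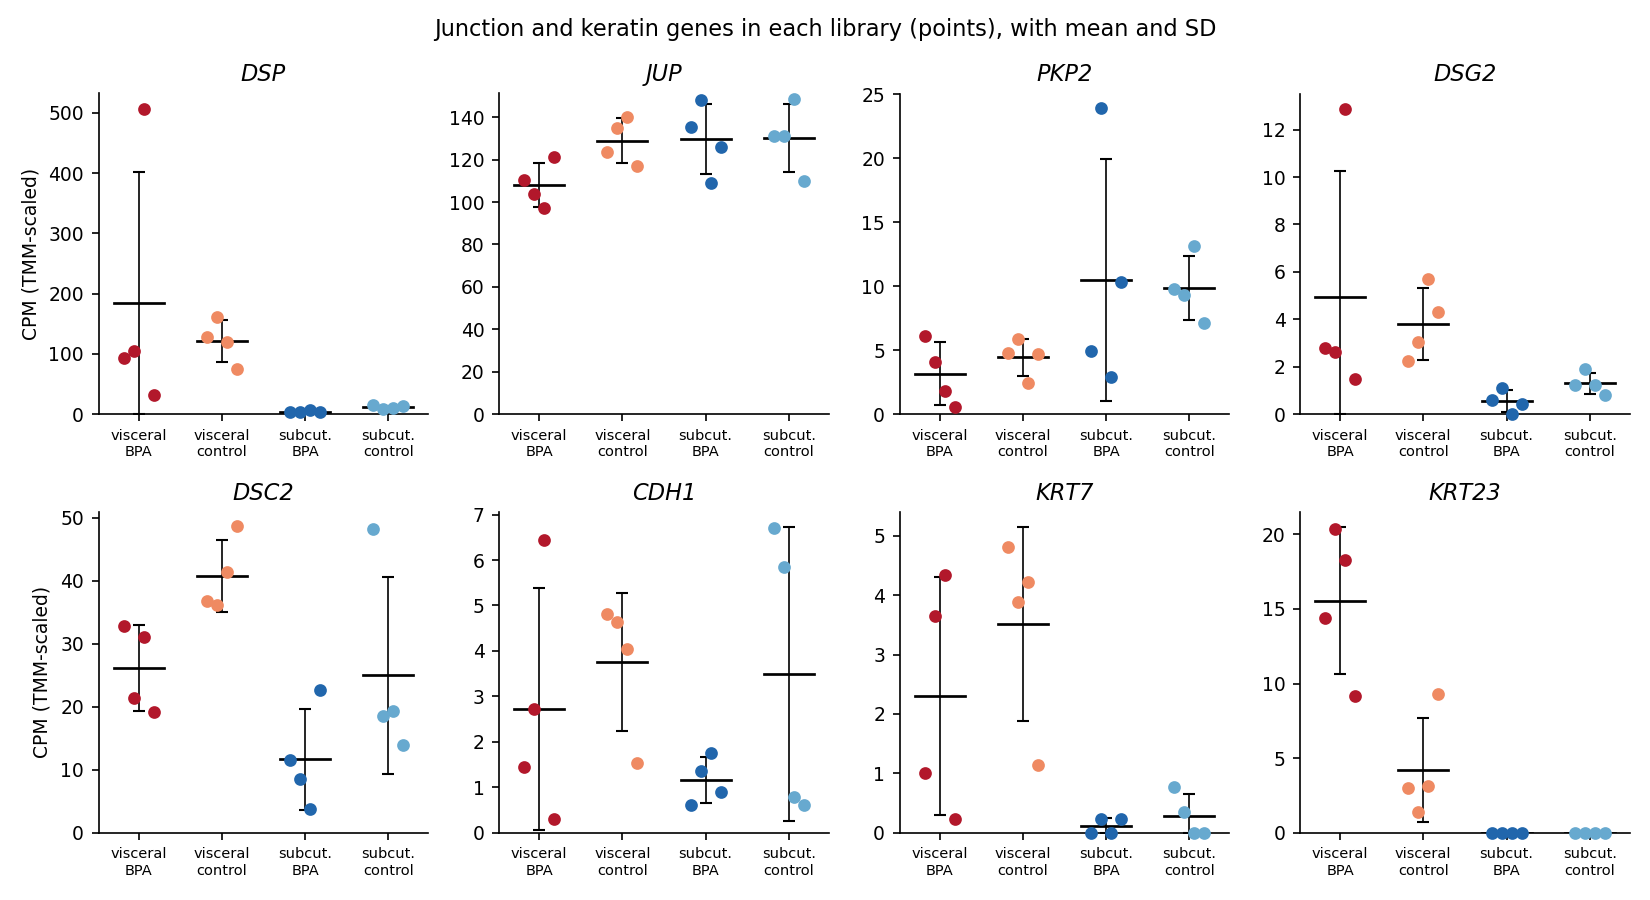
CPM (TMM-scaled, linear axes from 0) of the 8 genes in each of the 16 libraries, with the 4 groups in columns. Points are libraries, thick bars are group means and thin bars are 1 SD, drawn no lower than 0. DSP and KRT23 are higher in every visceral than in every subcutaneous library. KRT7 is so only within each treatment, and in BPA ewes only on this TMM scale. JUP lies between 97.0 and 149 CPM throughout, and visceral BPA library 977 stands at 507 CPM for DSP.

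Among the cadherins, DSG2 followed DSP at a much lower level. Desmoglein 2 is the desmoglein of simple epithelia and heart, and its gene lies on chromosome 23 from 30193408 to 30244659 on the minus strand. Visceral BPA libraries held 2.79, 2.62, 12.9 and 1.51 CPM, against 2.23, 3.03, 5.69 and 4.31 CPM in visceral controls. Subcutaneous BPA libraries held 0.618, 1.13, 0 and 0.449 CPM, against 1.25, 1.89, 1.25 and 0.818 CPM in subcutaneous controls. The depots did not overlap within either treatment, and the one high value was again that of visceral BPA library 977.

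In BPA ewes DSG2 had 10 counts in subcutaneous fat over all 4 libraries and was not tested. Its pooled counts over unscaled library totals gave 3.88 CPM in visceral and 0.605 CPM in subcutaneous fat, a ratio of 6.41 (exact 95% interval 3.39 to 13.6, which covers counting error only). Visceral library 977 held 86 of the 154 visceral counts, and without it the ratio was 3.41 (1.75 to 7.44). The depot difference of DSG2 in control ewes was 2.90-fold (log2 1.54 ± 0.42, edgeR adjusted p = 0.0348). That call was lost on omission of each of 6 libraries, visceral 908, 924 and 928 and subcutaneous 902, 928 and 931, with edgeR adjusted p between 0.0547 and 0.0866. It was lost too in a fit of all 16 libraries (edgeR adjusted p = 0.142) and without subcutaneous controls 902 and 924 together (edgeR adjusted p = 0.0852).

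DSC2, the desmocollin with the widest tissue range, had a higher level per length than DSG2 in each group. Its gene lies on chromosome 23 from 30620094 to 30657719 on the plus strand. Visceral BPA libraries held 32.8, 21.4, 31.0 and 19.1 CPM, against 36.8, 36.1, 41.4 and 48.6 CPM in visceral controls. Subcutaneous BPA libraries held 11.5, 8.57, 3.81 and 22.7 CPM, against 48.1, 18.6, 19.3 and 13.9 CPM in subcutaneous controls. Visceral BPA libraries were all below visceral controls, and subcutaneous control 902 stood well above the other subcutaneous libraries.

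Between depots the log2 difference of DSC2 was 1.15 ± 0.42 in BPA ewes (edgeR adjusted p = 0.109) and 0.71 ± 0.32 in control ewes (edgeR adjusted p = 0.17). A single library decided each call. Without subcutaneous BPA library 977 the value in BPA ewes was 1.69 (edgeR adjusted p = 0.0362), and without subcutaneous control 902 the value in control ewes was 1.24 (edgeR adjusted p = 0.00345). DESeq2 called DSC2 in BPA ewes (DESeq2 adjusted p = 0.0487), where it called 2197 genes in all, against 1250 by edgeR.

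DSG2 and DSC2 lie in the cluster of desmosomal cadherin genes on chromosome 23. The 4 genes between them, DSG3, DSG4, DSG1 and DSC1, belong to stratified epithelia such as skin, and they had 1, 0, 0 and 3 counts over the 8 visceral libraries and 0, 3, 0 and 1 over the 8 subcutaneous ones. DSG2 and DSC2 had 330 and 2816 visceral counts, and 41 and 816 subcutaneous counts. DSC3, listed under a gene number in the table, had 306 visceral and 108 subcutaneous counts.

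CDH1 had no depot difference that passed the test, and its libraries split within groups. The gene of E-cadherin lies on chromosome 14 from 38824746 to 38897172 on the plus strand. Visceral BPA libraries held 1.45, 2.73, 6.44 and 0.301 CPM, against 4.81, 4.64, 4.05 and 1.54 CPM in visceral controls. Subcutaneous BPA libraries held 0.618, 1.35, 1.76 and 0.897 CPM, against 6.70, 5.85, 0.783 and 0.614 CPM in subcutaneous controls. Subcutaneous controls 902 and 924 were at the level of the visceral controls, while 928 and 931 were at the level of the subcutaneous BPA libraries. The log2 depot difference in control ewes was 0.10 ± 0.67 (edgeR adjusted p = 0.939), and with the ewe as a block it was -0.18, from ewes 902, 924 and 928 alone. CDH1 had too few counts to be tested between depots in BPA ewes.

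Both keratins were visceral transcripts in these libraries. KRT23, an acidic keratin, lies on chromosome 11 from 22054839 to 22071825 on the plus strand. It had 0 counts in all 8 subcutaneous libraries. In visceral fat it was at 14.4, 20.4, 18.3 and 9.18 CPM in BPA ewes, against 3.03, 1.42, 3.10 and 9.27 CPM in control ewes. The visceral libraries stood apart from the subcutaneous ones in both treatments, and within visceral fat only control 928 reached the BPA range.

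Against a floor of 3 counts over the 4 subcutaneous libraries, KRT23 was at least 76.6-fold higher in visceral fat of BPA ewes and at least 31.1-fold higher in visceral fat of control ewes. Visceral control 928 held 114 of the 199 visceral control counts, and without it the limit was 18.3-fold. Both depot differences were called (edgeR adjusted p = 0.0012 in BPA ewes and 0.00777 in control ewes). With 0 subcutaneous counts KRT23 passed the filter on low counts through its visceral libraries alone, so a call could only be higher. These calls are therefore not read as a test. In control ewes KRT23 was tested in only 5 of the omissions of single libraries.

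KRT7, a basic keratin of simple epithelia and mesothelium, lies on chromosome 3 from 143675682 to 143691551 on the minus strand. Visceral BPA libraries held 1.003, 3.64, 4.34 and 0.226 CPM, against 4.81, 3.88, 4.22 and 1.14 CPM in visceral controls. In subcutaneous fat it had 2 counts over the 4 BPA libraries and 7 over the 4 control libraries, so neither depot comparison was tested at the filter used. On the TMM scale each visceral library was above each subcutaneous library of the same treatment. In BPA ewes that rested on 3 counts in visceral library 984 and 1 in subcutaneous library 922, which both rounded to 0.226 CPM. On unscaled totals these groups overlapped, with 0.210 CPM in visceral 984 and 0.232 CPM in subcutaneous 922. The pooled ratio of visceral to subcutaneous fat was 15.2 in BPA ewes (exact 95% interval 4.06 to 128) and 10.6 in control ewes (5.02 to 26.8), counting error only. Subcutaneous control 902 held 5 of the 7 control counts, and without it the ratio in control ewes was 26.8 (7.29 to 223). Without a filter on low counts KRT7 was called in both treatments (edgeR adjusted p = 0.0456 in BPA ewes and 0.011 in control ewes).

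Most other keratins next to these genes had few counts. Of 17 keratin genes around KRT7, 8 had 0 counts in all libraries and 14 had fewer than 20. Of 17 around KRT23, 6 had 0 counts and 13 had fewer than 20. Only genes named as keratins in the table were counted, which leaves out KRT13, KRT14 and KRT15, listed under gene numbers. KRT13 had 57 counts in subcutaneous control and 9 in subcutaneous BPA fat, against 3 and 4 in visceral fat. KRT15 had 7 counts in visceral control and 20 in visceral BPA fat and 0 in subcutaneous fat, and KRT14 had 0 in each group. Among the genes counted, the keratins of simple epithelia were the main exceptions, with 1158 visceral and 110 subcutaneous counts for KRT8, 992 and 38 for KRT19, and 159 and 44 for KRT18, beside 397 and 239 for KRT10.

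Over the 8 genes, 2 of the 5 tested in BPA ewes were called, both higher in visceral than in subcutaneous fat, against a background of 9.07% of 13782 genes (5.13% called higher). In control ewes 4 of 7 tested were called, 3 higher and 1 lower in visceral fat, against 13.3% of 14456 genes (7.17% higher and 6.16% lower). The depots did not overlap for 2 of the genes tested in BPA ewes, where 18.6% of all genes tested did not, and for 4 of those tested in control ewes, where 19.9% did not. KRT23, among those called higher in both treatments, was tested through its visceral counts alone. The genes were chosen with earlier results known, so these counts describe the 8 genes and carry no test of the list. In bulk tissue, fewer cells of a type and less RNA per cell cannot be told apart.

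**Figure D2:**
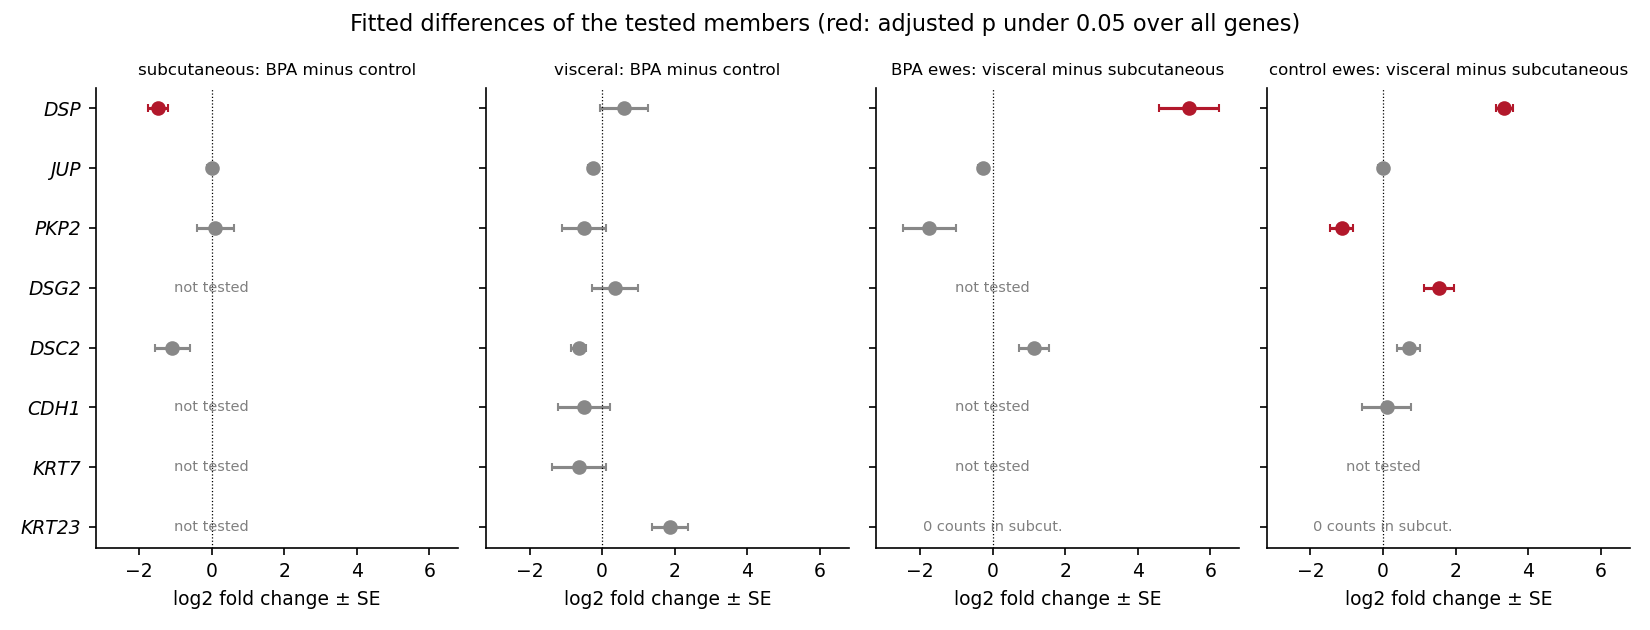
Log2 fold changes with SE bars from edgeR for each of the 8 genes, in 4 panels that share 1 axis, with red for adjusted p under 0.05 over all genes tested and grey otherwise. DSP is called in 3 panels, at -1.47 for BPA against control in subcutaneous fat and at 5.42 and 3.34 between depots in BPA and control ewes, and JUP lies at or near 0 in each. Genes with too few counts are marked as not tested, and KRT23 has no bar between depots because it had 0 subcutaneous counts.

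The comparison of BPA with control within each depot asks what the prenatal exposure left behind in the adult tissue. In subcutaneous fat 4 of the 8 genes were tested and 1 of them, DSP, was called, against a background of 0.709% of 13535 genes called in either direction and 0.103% called lower. That call is what placed DSP among the genes described, so nothing is read from it. DSP stood at 4.35 ± 1.46 CPM in BPA and 12.03 ± 2.23 CPM in control fat, which is 2.78-fold lower (log2 -1.47 ± 0.28), from 72 counts over the BPA libraries and 283 over the controls. The groups did not overlap for DSP, as for 7.45% of all genes tested. The call was lost on omission of 7 of the 8 libraries and kept only without BPA library 941, while the log2 value stayed between -1.71 and -1.33. It was lost too in a fit of all 16 libraries and without controls 902 and 924.

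The other genes tested in subcutaneous fat did not pass. DSC2 was at 11.6 ± 8.00 CPM in BPA and 25.0 ± 15.6 CPM in control fat (log2 -1.09 ± 0.49, edgeR adjusted p = 0.348), and at -0.55 on the log2 scale without control 902. PKP2 was at 10.5 ± 9.45 and 9.86 ± 2.48 CPM (0.10 ± 0.51), and at -0.68 without BPA library 922. JUP was at 129.6 ± 16.5 and 130.2 ± 15.8 CPM (-0.00 ± 0.14). CDH1 had 19 counts in BPA and 85 in control libraries, of which 43 and 34 lay in controls 902 and 924.

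The summed markers of macrophages and of striated muscle, unlike those of the other cell types listed, did not overlap between subcutaneous BPA and subcutaneous control libraries. Summed macrophage markers (9 of 11 in the table) were 332 to 539 CPM in BPA and 622 to 853 CPM in control libraries. Striated muscle markers (10 of 12) were 508 to 1232 CPM in BPA and 304 to 500.4 CPM in control libraries. Smooth muscle markers (8 of 8) were 717 to 1110.0 CPM in BPA and 635 to 791 CPM in control libraries, lymphatic markers (8 of 8) 105 to 180.0 CPM in BPA and 175 to 337 CPM in control libraries, and lymphocyte markers (11 of 11) 44.7 to 106 CPM in BPA and 83.8 to 240.4 CPM in control libraries. Markers of skin, gland and gut epithelium were 1.79 to 5.86 CPM in BPA and 5.64 to 13.2 CPM in control libraries, and mesothelial markers without PKHD1L1 (12 of 14) 3.30 to 9.20 CPM in BPA and 4.91 to 14.6 CPM in control libraries. Adipose progenitor markers (8 of 8) were 1155 to 2027 CPM in BPA and 1555 to 2165 CPM in control libraries. The single markers called were TYROBP of 9 macrophage markers tested (log2 -1.75 ± 0.33, edgeR adjusted p = 0.0447), THY1 of 8 progenitor markers (-1.03 ± 0.19, edgeR adjusted p = 0.0429) and LMOD1 of 8 smooth muscle markers (1.299 ± 0.25, edgeR adjusted p = 0.043), where 0.103% of all genes were called lower and 0.606% higher. The part of these markers in the DSP difference was not tested.

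In visceral fat all 8 genes were tested and none was called, in a comparison where edgeR called 0 of 14774 genes (0%) and DESeq2 called 5, none of them among the 8. At an unadjusted p under 0.05 edgeR found 1103 genes (7.47%) and 2 of the 8, KRT23 and DSC2. KRT23 averaged 15.6 ± 4.92 CPM in BPA and 4.21 ± 3.46 CPM in control fat (log2 1.87 ± 0.50, edgeR adjusted p = 0.658), with an overlap of 1 library on each side, at 9.18 CPM in BPA and 9.27 CPM in control. DSC2 averaged 26.1 ± 6.82 and 40.7 ± 5.76 CPM (-0.64 ± 0.21, edgeR adjusted p = 0.658) and was the 1 gene of the 8 whose groups did not overlap, as for 4.03% of all genes tested. DSC2 had means below control in both depots, neither of which passed.

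The mean of DSP was higher in visceral BPA fat only through library 977. With it the log2 difference was 0.61 ± 0.65 (edgeR adjusted p = 0.789), and without it -0.68, with 76.5 ± 38.5 CPM in the 3 other BPA libraries and 121 ± 35.0 CPM in the 4 controls. DSG2 behaved alike, at 0.35 ± 0.63 with library 977 and -0.75 without it. PKP2 (-0.50 ± 0.60), CDH1 (-0.49 ± 0.72) and KRT7 (-0.64 ± 0.75) had values below 0 with SEs larger than the values, and JUP was at -0.25 ± 0.13.

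Whether the BPA difference itself differed between depots was tested on all 16 libraries. None of the 8 genes was called, and none of all 14793 genes by edgeR (0%), where 917 (6.2%) had an unadjusted p under 0.05 and DESeq2 called 11. DSP had the one unadjusted p under 0.05 among the 8 (log2 2.09 ± 0.87, edgeR adjusted p = 0.738), and its value was 0.83 without visceral BPA library 977. KRT23 could not be estimated there because it had no subcutaneous counts.

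Per length the order of the transcripts differed between depots. On the scale of CPM per kilobase of exon, JUP led in each group, with means between 30.7 and 37.0, and did not overlap the next gene except in visceral BPA fat. DSP came next in visceral fat, at 19.5 ± 23.1 in BPA and 12.9 ± 3.71 in control ewes (SD, n = 4 each), and after DSC2 and PKP2 in subcutaneous fat, at 0.462 ± 0.154 in BPA and 1.28 ± 0.237 in control ewes. In visceral BPA fat KRT23 followed (9.63 ± 3.05) and then DSC2 (5.11 ± 1.34). Without library 977 DSP averaged 8.11 ± 4.09 there and came after KRT23, at 9.07 ± 3.47 (SD, n = 3), with overlap. After DSP came, in visceral control fat, DSC2 (7.99 ± 1.13) and then KRT23 (2.602 ± 2.14). DSG2, PKP2, KRT7 and CDH1 formed a low group in visceral fat, with means of 0.546 to 0.963 in BPA and 0.742 to 1.17 in control ewes, in which each neighbour overlapped the next. In subcutaneous fat DSC2 and PKP2 came after JUP, overlapped each other and had means between 2.28 and 4.90.

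**Figure D3:**
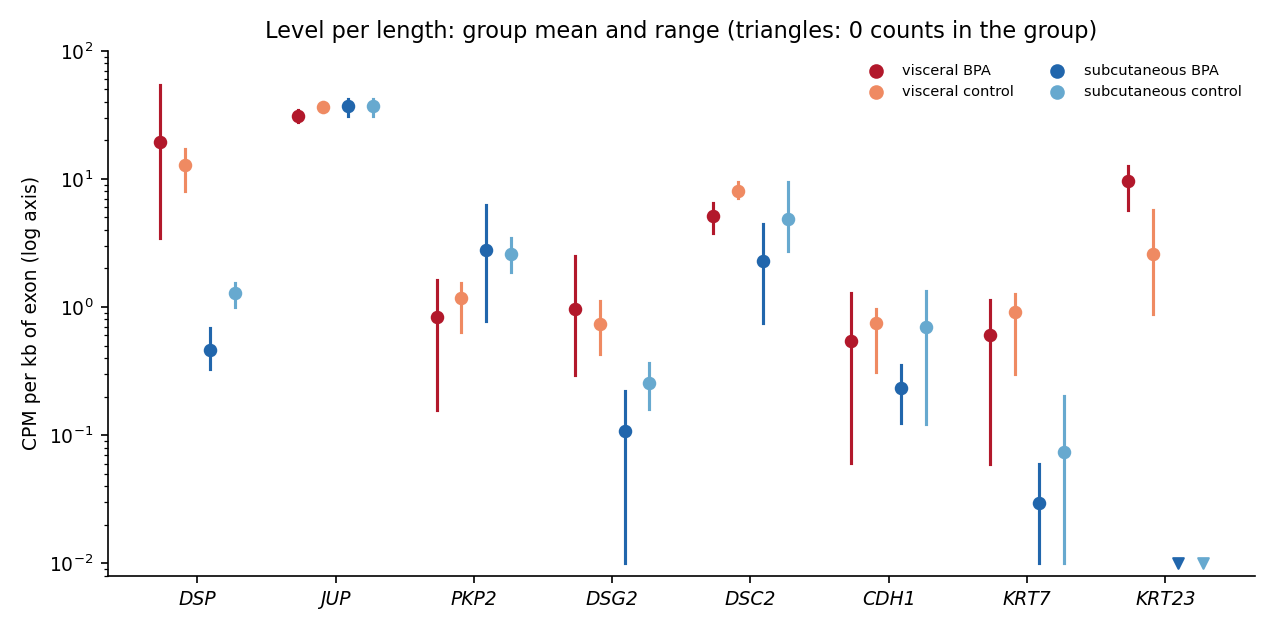
Level per kilobase of exon (CPM per kb, log axis) of the 8 genes in the 4 groups, with points for group means and lines from the lowest to the highest library. A line that reaches the lower end of the axis includes a library at 0 counts, and triangles mark groups with 0 counts in all libraries. JUP is highest in each group, and DSP changes its place between depots.

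Individual libraries carried several of the genes together. Visceral BPA library 977 was the highest of the 8 visceral libraries for DSP, DSG2 and CDH1 and the lowest for JUP, and visceral BPA library 984 was the lowest for DSP, PKP2, DSG2, DSC2, CDH1 and KRT7. Library 977 also had the lowest visceral sum of adipocyte markers, 14739.5 CPM, where the next was 20750.8 CPM. Its sum of lymphocyte markers was the highest, 199 CPM, where the next was 115 CPM. The part of cell content in its values was not tested. Subcutaneous control 902 was the highest of the 8 subcutaneous libraries for DSP, DSC2, CDH1 and KRT7. With the mean of each group taken off the log2 CPM, CDH1 and KRT7 moved most alike over the 16 libraries (Pearson r = 0.88), DSP had r = 0.68 with CDH1 and with KRT7, and DSP and JUP had r = -0.45. These correlations share libraries and depth and are given as a description.

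The sum of mesothelial markers other than PKHD1L1 was highest and lowest in the same visceral libraries as DSP. Of 15 markers listed, 13 were in the table, ITLN1 and MUC16 were not matched, and PKHD1L1 was left out of the sum after the data were seen because it was also present in subcutaneous fat. The other 12 summed to 73.0, 97.4, 393 and 33.7 CPM in visceral BPA libraries 910, 918, 977 and 984, against 144, 134, 103 and 66.4 CPM in visceral controls 902, 908, 924 and 928. They summed to 3.30 to 9.20 CPM in subcutaneous BPA and 4.91 to 14.6 CPM in subcutaneous control libraries. The highest and the lowest visceral library were the same for this sum as for DSP, 977 and 984. Singly, LRRN4, BNC1, UPK3B, KRT8 and KRT19 had those same extremes, but not every marker did. WT1 was lowest in library 918, at 11.0 CPM, against 16.7 CPM in library 984. MSLN reached 4.27 CPM in a visceral control and at most 3.74 CPM in visceral BPA libraries. PKHD1L1 averaged 60.5 ± 24.1 CPM in visceral and 68.2 ± 32.8 CPM in subcutaneous fat of BPA ewes, and 67.4 ± 21.9 CPM in visceral and 85.4 ± 25.1 CPM in subcutaneous fat of control ewes (SD, n = 4 each). With it the sums were 67.7 to 463 CPM in visceral BPA, 111 to 239 CPM in visceral control, 48.6 to 119.9 CPM in subcutaneous BPA and 77.7 to 126 CPM in subcutaneous control libraries, so that the depots overlapped.

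Among the markers listed, LRRN4, WT1, BNC1 and UPK3B were at or near 0 in subcutaneous fat, and CALB2 was near 0 in both depots, with at most 2 counts in a group. Others were present in subcutaneous fat. KRT8 averaged 2.40 CPM in subcutaneous BPA and 2.88 CPM in subcutaneous control fat, and CLDN1 reached 5.14 CPM in a subcutaneous control library. KRT18 averaged 1.72 CPM in visceral and 1.46 CPM in subcutaneous control fat. LRRN4 had 0 counts in all 8 subcutaneous libraries, against 4.59 to 107 CPM in visceral BPA and 13.3 to 37.5 CPM in visceral control libraries. WT1 had 2 counts over the subcutaneous BPA and 1 over the subcutaneous control libraries, BNC1 had 2 and 3, and UPK3B had at most 3 in a library. In BPA ewes 2 of the 4 markers tested were called higher in visceral fat, where 5.13% of all genes were, and in control ewes 7 of 10, where 7.17% were, UPK3B among them (log2 4.49 ± 0.44, edgeR adjusted p = 0.00023). LRRN4, WT1, BNC1 and UPK3B could pass the filter on low counts through visceral libraries alone, so their calls could hardly be other than higher. No excess over all genes is therefore read from these counts. The call of LRRN4 in BPA ewes was lost on omission of 1 library (edgeR adjusted p = 0.0562). KRT8, KRT18, KRT19 and CLDN1 are in this list and also in the keratin and tight junction lists below. The part of these markers in the depot difference of DSP, DSG2, KRT7 and KRT23 was not tested. Over the subcutaneous libraries alone DSP did not keep their order, since BPA library 977 had 9.20 CPM of markers and 4.04 CPM of DSP, while control 931 had 4.91 CPM of markers and 12.9 CPM of DSP.

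**Figure D4:**
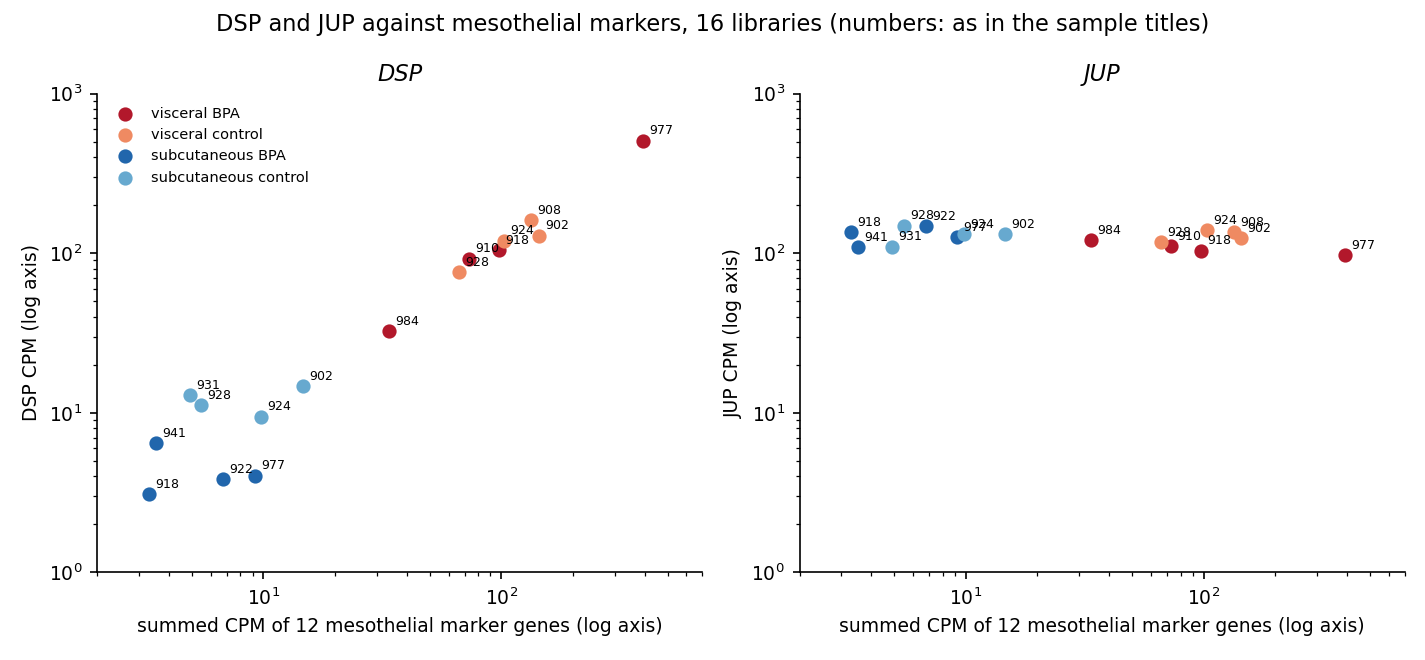
DSP (left) and JUP (right) in CPM against the summed CPM of 12 mesothelial markers in the 16 libraries, on log axes, with the number in the sample title beside each point. DSP runs with the marker sum across visceral libraries, where 984 is lowest at 32.5 CPM and 977 highest at 507 CPM, whereas JUP stays between 97.0 and 149 CPM.

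The genes whose levels most resembled those of DSP over the 16 libraries, by Pearson r of log2 CPM, were CGN (0.96), LOC101103644 (0.96), COBL (0.96), LRRN4 (0.96) and SCEL (0.96). CGN codes for cingulin of tight junctions, SCEL for sciellin of the cornified envelope and COBL for an actin nucleator. With group means taken off, LOC101103644 (0.94), LRRN4 (0.94), CRB2 (0.92) and UNC5C (0.91) were among the nearest. The mean pattern of the 8 genes was most like those of LOC114112975 (0.93), SFRP5 (0.90), CFB (0.88), CFI (0.88), WNT2B (0.88), TIFA (0.87), EPPK1 (0.87), RHPN2 (0.87), KRT19 (0.87) and CCDC158 (0.87). EPPK1 codes for epiplakin, a plakin that binds keratins, and SFRP5 for a secreted Wnt inhibitor. Both measures are descriptions over libraries that fall into 2 depots, and the lists changed with the measure: by Spearman's rho 2 of the 5 genes nearest DSP and 6 of the 10 nearest the mean pattern remained.

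Other genes of the desmosome and of the plakin family were compared from lists chosen, like the 8 genes, with earlier results known. Beside the edgeR calls of every list stand the shares of all genes called between depots, 5.13% higher and 3.94% lower in visceral fat of BPA ewes, and 7.17% higher and 6.16% lower in that of control ewes. DESeq2 called more genes in all, 2197 in BPA ewes and 2772 in control ewes, against 1250 and 1928 by edgeR. The share of all genes with an unadjusted p under 0.05 is not given between depots. No excess is therefore read from the unadjusted and DESeq2 counts of any list. Of 12 listed, 4 were tested in BPA ewes, of which 1 was called higher in visceral fat, and 5 were tested in control ewes, of which 3 were called higher and 1 lower. In BPA ewes all 4 had an unadjusted edgeR p under 0.05, and DESeq2 called 3, PKP4, EVPL and PKP1. EVPL, which codes for envoplakin, averaged 20.7 ± 13.2 CPM in visceral and 0.225 ± 0.260 CPM in subcutaneous fat of BPA ewes (log2 6.36 ± 0.95, edgeR adjusted p = 0.00508). In control ewes it averaged 12.8 ± 4.19 CPM in visceral and 0.384 ± 0.0705 CPM in subcutaneous fat (5.01 ± 0.40, edgeR adjusted p = 5.4e-05). PKP1, the plakophilin of stratified epithelia, was also higher in visceral control fat, at 4.96 ± 2.70 against 0.317 ± 0.251 CPM (3.98 ± 0.69, edgeR adjusted p = 0.00505). PPL, whose product periplakin pairs with envoplakin, ran the other way, at 247 ± 87.4 CPM in visceral and 753 ± 199 CPM in subcutaneous control fat (-1.60 ± 0.28, edgeR adjusted p = 0.00561). EVPL had at most 3 counts in a subcutaneous library, and so had PKP1 in control ewes, so these genes were tested there through visceral counts alone.

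The share of adherens junction genes called between depots was near that of all genes. Of 14 tested, 1 was called higher in visceral fat of BPA ewes, where 9.07% of all genes were called in either direction, and 1 higher and 1 lower in control ewes, where 13.3% were. CTNNA3, alpha-T-catenin, was higher by log2 2.45 ± 0.51 in BPA ewes (edgeR adjusted p = 0.0178), a call lost without subcutaneous library 922 or 977 (edgeR adjusted p = 0.0631 and 0.0514), and by 2.24 ± 0.43 in control ewes (edgeR adjusted p = 0.00814), or 3.42 without subcutaneous controls 902 and 924. CDH3, P-cadherin, fell by 1.11 ± 0.27 on the log2 scale in control ewes (edgeR adjusted p = 0.0221). Of the tight junction genes, 2 of 12 tested were called higher in BPA ewes, and 4 higher and 2 lower of 17 in control ewes. CGN was higher by log2 4.61 ± 0.72 in BPA ewes (edgeR adjusted p = 0.00674), or 3.72 without visceral library 977, and by 3.24 ± 0.29 in control ewes (edgeR adjusted p = 0.000164). CLDN15, a claudin that forms cation pores, was higher by 1.86 ± 0.28 in BPA ewes (edgeR adjusted p = 0.00497) and by 1.54 ± 0.24 in control ewes (edgeR adjusted p = 0.00314). CGNL1, paracingulin, rose by 0.76 ± 0.20 in control ewes (edgeR adjusted p = 0.0319), a call lost on omission of each of 4 libraries, visceral 902, 908 and 928 and subcutaneous 902, with edgeR adjusted p up to 0.0781. The CDH3 call was lost without visceral 928 or subcutaneous 924, with edgeR adjusted p up to 0.0606.

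Of the other keratins edgeR called 0 of 2 tested in BPA ewes, where 1 had an unadjusted p under 0.05 and DESeq2 called 1, KRT8. In control ewes 4 were tested, and KRT8 (log2 2.53 ± 0.40, edgeR adjusted p = 0.00335) and KRT19 (2.97 ± 0.69, edgeR adjusted p = 0.0183) were higher in visceral fat. Without subcutaneous controls 902 and 924 the value of KRT19 was 6.63. These simple-epithelial keratins also mark mesothelium. Of the hemidesmosome genes, which anchor epithelia to the basement membrane, 1 of 8 tested was called in BPA ewes. This was COL17A1, the hemidesmosomal collagen, at 1.25 ± 0.574 CPM in visceral and 6.29 ± 3.13 CPM in subcutaneous fat (log2 -2.34 ± 0.49, edgeR adjusted p = 0.019), and that call was lost without subcutaneous library 922 (edgeR adjusted p = 0.0769) and with the ewe as a block (edgeR adjusted p = 0.115). In BPA ewes that block draws on ewes 918 and 977 alone. In control ewes edgeR called 0 of 8, where 3 had an unadjusted p under 0.05 and DESeq2 called COL17A1.

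Transcription factors that repress epithelial junction genes did not move one way. In BPA ewes 2 of 6 were called lower and 2 higher in visceral fat. TWIST2 was lower (log2 -1.79 ± 0.30, edgeR adjusted p = 0.00853), whereas ZEB1 (0.72 ± 0.14, edgeR adjusted p = 0.0161) and ZEB2 (0.88 ± 0.19, edgeR adjusted p = 0.0192) were higher. The BPA-ewe call of ZEB1 was lost without subcutaneous library 922, that of ZEB2 without 922 or 941, and both with the ewe as a block (edgeR adjusted p = 0.0781 and 0.165), which draws on ewes 918 and 977 alone. In control ewes TWIST1 (log2 -1.97 ± 0.23, edgeR adjusted p = 0.000744), SNAI2 (-1.34 ± 0.17, edgeR adjusted p = 0.00111) and TWIST2 (-2.06 ± 0.29, edgeR adjusted p = 0.00187) were lower in visceral fat, while 2 of the 6, ZEB1 and ZEB2, were called higher. Of the epithelial regulators, such as the grainyhead factors, edgeR called 0 of 4 tested in BPA ewes and 0 of 5 in control ewes, where 0 and 1 had an unadjusted p under 0.05, and DESeq2 called 0 in either.

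**Figure D5:**
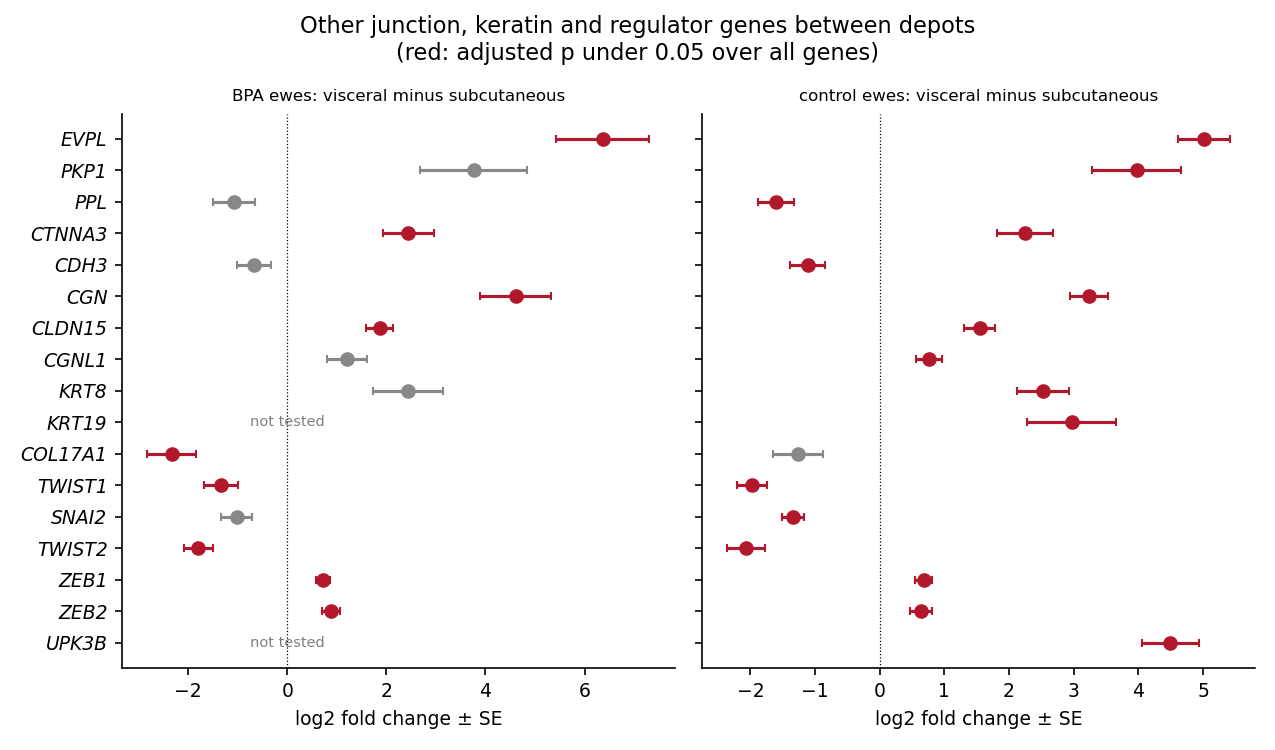
Log2 differences between visceral and subcutaneous fat with SE bars for other junction, keratin and regulator genes, BPA ewes on the left and control ewes on the right, with red for adjusted p under 0.05 over all genes tested. EVPL lies at 6.36 and 5.01 and PPL below 0 in both panels. Genes with too few counts are marked as not tested.

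BPA against control called none of the genes of these lists with edgeR, where it called 0.709% of all genes in subcutaneous and 0% in visceral fat. In subcutaneous fat 49 of the 101 genes listed were tested, and 8 had an unadjusted p under 0.05. The share of all genes below that p is not given for subcutaneous fat, so no excess is read from the 8. DESeq2 called 1 of the listed genes there, CLDN11, and 464 genes in all. In visceral fat 60 were tested and 4 had an unadjusted p under 0.05, where 7.47% of all genes did. DESeq2 called none of the listed genes there and 5 in all.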

How the data were processed

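RNA of 16 fat libraries was sequenced after ribosomal RNA depletion with a low-input kit, per the labels' protocols. Quality control used FastQC 0.11.5 and MultiQC 0.9, alignment STAR 2.6.0c and counting featureCounts (Subread 1.6.1), per the submitters' processing notes. The sources used here do not name the genome build, the annotation or the strandedness of counting. The authors deposited 1 count per gene and library. The table is described as normalized, but 0 values are other than whole numbers and totals range from 3.05 to 14.3 M, so the values were taken as raw counts.

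With R 4.3.3, genes were filtered with filterByExpr (10 counts, 15 in total), scaled by TMM and tested by quasi-likelihood in edgeR 4.0.16 (two-sided, Benjamini-Hochberg over all genes tested, threshold 0.05). Each comparison used its own 8 libraries, and the difference of BPA effects used all 16. SEs derive from the estimate and its F. The fits were tested on simulated data. Pooled ratios carry exact binomial intervals (95%), and floors are 3 counts. Alternatives were DESeq2 1.42.0, its size factors, no filter, 50 counts in 4 libraries, all 16 libraries in 1 fit, limma 3.58.1 voom, a block and omissions. In the edgeR depot comparisons the block was a fixed effect of the ewe, so only ewes with libraries in both depots inform the difference. Chromosome numbers come from the ARS-UI_Ramb_v3.0 chromosome that holds most genes of the same symbols, and 406 of 10441 LOC rows got a symbol from that annotation.

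The genes and lists were chosen with earlier results of these data known. Other genes named are, per list and comparison, up to 3 called with the smallest p, plus the genes most like DSP or the mean pattern (1 of these is not reported here), while genes beside the members on the chromosome, EPCAM, KRT5, CLDN11, CALB2, TYROBP, THY1 and LMOD1 were named after their values were seen. Pooled ratios and limits with a library left out, levels per kilobase without 977 and the marker sum without PKHD1L1 were added after the data were seen. The number in each title was taken as the ewe. Deviations of same-numbered control libraries from their group means correlated across genes (r = 0.287, 0.40 and 0.332), so these numbers pair the depots, whereas for BPA numbers 918 and 977 r was 0.167 and 0.031. Nothing states that libraries of 1 group are separate animals beyond these numbers, so p-values measure the spread between these libraries.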

Additional observations from a re-analysis of the deposited data

Results flagged for a closer look

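Of 40 sets of 4 libraries examined, for the levels of the 8 genes and for the mesothelial sum with and without PKHD1L1, 3 held 1 library far from the other 3, and chance alone marks about 1 in 20 such sets. DSP in visceral BPA fat had its highest library, 977, at 507 CPM, against 32.5 to 104 CPM in the other 3. DSG2 in the same library was at 12.9 CPM, against 1.51 to 2.79 CPM. DSC2 in subcutaneous control fat had its highest library, 902, at 48.1 CPM, against 13.9 to 19.3 CPM in the other 3.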

How the results depend on the processing

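In visceral against subcutaneous control fat, the number of the 8 genes called was 2 at 50 counts in 4 libraries (DSP and PKP2, where KRT23 and DSG2 were not tested), 3 with all 16 libraries in 1 fit (DSP, KRT23 and KRT7), 4 without subcutaneous controls 902 and 924 (DSP, KRT23, KRT7 and DSC2), and 1 to 4 on omission of single libraries. PKP2 and DSG2 lost their calls in that fit and without those controls. In BPA ewes it was 4 without a filter and 4 with all 16 libraries in 1 fit, KRT7 and DSG2 being added, and 2 to 3 on omission. In subcutaneous BPA against control fat it was 0 with all 16 libraries in 1 fit, 0 without controls 902 and 924, and 0 to 1 on omission, with DSP at edgeR adjusted p between 0.0363 and 0.152. In the depot comparisons the replicate block draws only on ewes with libraries in both depots. These were 918 and 977 among BPA ewes, and 902, 924 and 928 among control ewes, so few pairs stand behind its values. With the replicate block the counts were 2 in BPA and 4 in control ewes, for the same genes, while calls over all genes were 892 with the block, against 1250, in BPA ewes and 2631, against 1928, in control ewes. Beyond COL17A1, ZEB1 and ZEB2 in BPA ewes it ended no call of a named gene, and it moved, among others, the log2 values of DSP to 6.16, EVPL to 6.99, CTNNA3 to 3.29 and TWIST2 to -1.08 in BPA ewes. Of the fold changes of named genes, 326 of 350 kept direction and call under the full alternatives. Directions that turned were those of JUP in subcutaneous fat (0.0124 without controls 902 and 924) and between depots in control ewes (0.00286 without a filter), and CDH1 there (-0.18 with the replicate block). For the test between depots KRT7 turned to -0.63 with the replicate block and -1.19 without it in voom and to -3.71 without controls 902 and 924, CDH1 to -0.30 in voom without the block and -1.17 without those controls, and DSC2 to -0.15 without them. On omission of single libraries the log2 range spanned 0 for JUP (-0.0724 to 0.0748 in subcutaneous BPA fat and -0.0725 to 0.0666 between depots in controls), PKP2 (-0.68 to 0.41 in subcutaneous BPA fat and -1.16 to 0.19 for the test between depots), DSP (-0.68 to 0.95) and DSG2 (-0.75 to 0.66) in visceral BPA fat, CDH1 (-0.23 to 0.64 between depots in controls), and DSC2 (-0.10 to 0.97) and KRT7 (-0.63 to 1.07) for the test between depots. The cause was not tested. Levels of the 8 genes moved by less than 1 SD with unscaled totals. Subcutaneous depth limits KRT7, DSG2 and CDH1, of which 3 counts were worth 0.482 to 0.985 CPM in a library.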
